A study of Homo sapiens with 2 samples.

Results

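The testis-associated genes *CTAG1A*, *CTAG1B*, *CTAG2*, *SSX1*, *SSX2*, *SSX4*, *PRAME*, *SPANXB1*, *CTCFL*, and *BRDT*, were described by scRNA-seq in HCT116 cells with and without DAC treatment. They were taken by name from both count tables and were 10 of the 33538 genes listed there. HCT116 is an established cell line from a human colon carcinoma, grown here in McCoy's 5A medium with serum. Decitabine (DAC) is a cytidine analog that binds DNA methyltransferases to DNA and lowers DNA methylation over cell divisions. The day 7 harvest of the DAC-treated group followed a pair of DAC doses, each at 0.5 μM, on days 1 and 3, and a drug-free interval that began with a medium change on day 5. The mock-treated group is labelled Mock, without a further description of what was added. Each group was 1 library (1783 mock-treated and 1751 DAC-treated cells), and the cells of a library are not replicates, so no test between the groups was made. The intervals given below are 95% intervals and cover counting error only.

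Cancer-testis genes are expressed in male germ cells, are silent in most adult tissues, and are often switched on in tumors. Many of them are silenced by DNA methylation of their promoters in somatic cells and respond to DNA demethylating drugs, and several encode antigens recognized by T cells. The *CTAG* genes encode the NY-ESO-1 and LAGE-1 antigens. *SSX* genes encode transcriptional repressors that lie fused to *SS18* in synovial sarcoma, and *SPANXB1* encodes a nuclear protein of sperm. *PRAME* encodes a substrate receptor of a CUL2 ubiquitin ligase that was described as a repressor of retinoic acid receptor signaling. *CTCFL* (BORIS) is the germline paralog of the insulator protein CTCF, and *BRDT* is the testis-specific BET bromodomain protein that reads acetylated histones in spermatogenic cells.

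In DAC-treated cells, *CTAG2*, *PRAME*, *BRDT*, *CTCFL*, *SSX1*, and *SPANXB1* were higher than in mock-treated cells, and *CTAG1A*, *CTAG1B*, *SSX2*, and *SSX4* had fewer than 10 UMIs in both libraries together. A UMI marks 1 captured transcript molecule, and UMIs were read near the 3′ end of transcripts. UMIs of the 10 genes summed to 833 in the mock-treated and 9511 in the DAC-treated library, and of the latter *CTAG2* accounted for 41.1% and *PRAME* for 29.8%. The 6 genes with 10 UMIs or more in both libraries together were all at least 2-fold higher in CPM (UMIs per 1000000 UMIs of the library), and 25.4% of the 19130 genes with 10 UMIs or more passed the same limit. Of these 6 genes, all 5 but *PRAME* reached 10 UMIs through the DAC-treated library alone, so that they could only be higher there, and their number says nothing beyond the values of each gene. The 3 genes *CTAG2*, *BRDT*, and *SPANXB1* had 0 UMIs without and 10 or more with DAC treatment, as did 5.92% of all genes with 10 UMIs or more. At least 3 UMIs in 1 DAC-treated cell or more and in no mock-treated cell were found for 5 genes, *CTAG2*, *SSX1*, *SPANXB1*, *CTCFL*, and *BRDT*, and for 10.9% of all genes with a UMI.

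**Figure D1:**
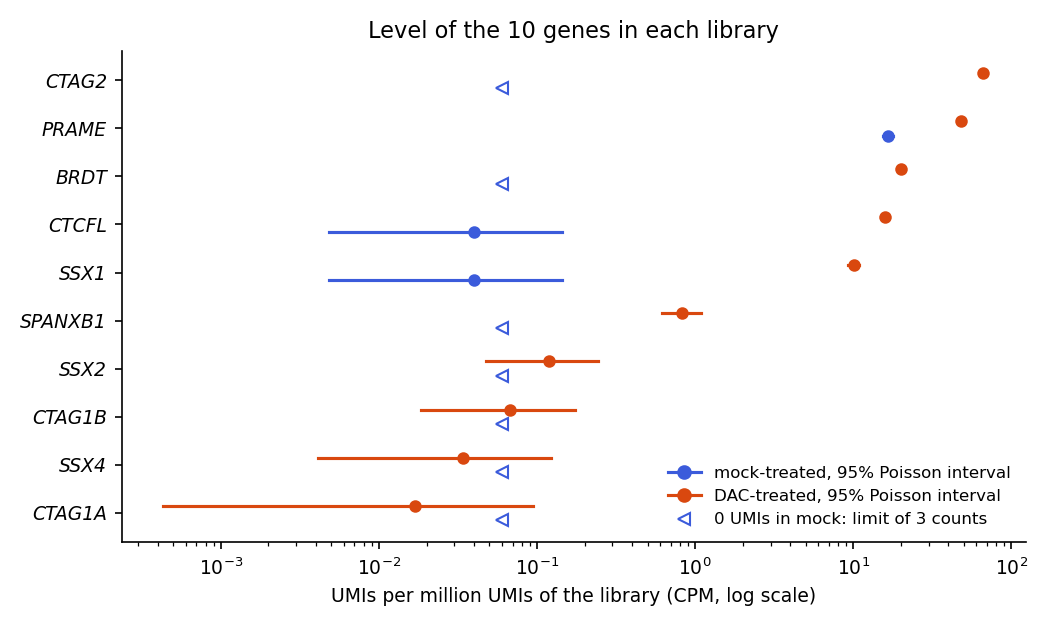
Level of each of the 10 genes in the mock-treated (blue) and DAC-treated (orange) library, in CPM on a log scale. Points are the levels, lines are 95% Poisson intervals, and open triangles mark a limit of 3 counts where the mock-treated library had 0 UMIs. *PRAME* had a high level in both libraries, and the 4 genes at the bottom had intervals that include the limit of the mock-treated library.

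The mock- and DAC-treated libraries contained 49911689 and 59046165 UMIs, with a median of 27899 and 35340 UMIs per cell. Cells with fewer than 10000 UMIs made up 22.1% of the mock-treated and 26.2% of the DAC-treated cells, and mitochondrial UMIs were over 50% in 311 and 319 cells. The libraries shared 12 barcodes, and cells with these barcodes held a UMI of one of the 10 genes in 6 mock-treated and 4 DAC-treated cells. The median log2 CPM ratio over all genes with 10 UMIs or more was 0.32, and median-of-ratios scaling lowered every log2 ratio by 0.18. The colon epithelial markers *EPCAM*, *KRT8*, *KRT18*, and *KRT19* had over 10000 UMIs in both libraries, and the summed level of 8 epithelial markers was 4944 CPM in mock-treated and 7967 CPM in DAC-treated cells, with *KRT18* at a ratio of 2.11, *KRT8* at 1.73, *CDH1* at 0.916, and *EPCAM* at 0.636. The summed level of 8 germ cell markers was 0.78 CPM and 48.1 CPM, with *DAZL* at 0 and 976 UMIs, *SYCP3* at 23 and 1765 UMIs, *DDX4* at 1 and 78 UMIs, *ACR* at 15 and 14 UMIs, and the protamine gene *PRM1* and the transition protein gene *TNP1* at 0 in both libraries. Summed blood markers moved from 0.060 to 1.02 CPM, fibroblast markers from 10.8 to 19.6 CPM, and endothelial markers from 0.12 to 1.91 CPM, and their part in the results was not tested.

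*CTAG2* was absent from the mock-treated library (0 UMIs) and had 3904 UMIs (95% Poisson interval 3782 to 4028) after DAC treatment. With the mock-treated library set to 3 counts, its level of 66.1 CPM after DAC treatment was at least 1100-fold higher (log2 of 10.1). This limit depends on the weight of the cells: by the mean of per-cell CPM, in which shallow cells raise the limit of the mock-treated library, its log2 was 7.61. Of the 4305 genes detected with DAC treatment alone, *CTAG2* ranked 4 by UMIs. It lies on chromosome X (hg38, chrX:154651972-154653579, minus strand), close to *CTAG1A* (chrX:154585133-154586816, plus strand) and *CTAG1B* (chrX:154617609-154619282, minus strand), the near-identical pair that encodes NY-ESO-1. *CTAG1A* had 0 UMIs in mock-treated and 1 UMI in DAC-treated cells. *CTAG1B* had 0 UMIs in mock-treated and 4 UMIs in DAC-treated cells, each in a different cell, and a fold was not read from so few UMIs. The transcript ends set a limit to these values. In the last 500 bases of their transcripts, all 41 windows of 91 bases of *CTAG1A* and of *CTAG1B* also occurred in another gene of the trio, so that a read there could not be given to one gene. For *CTAG2*, 10 of 41 windows (24.4%) were shared. The counts of *CTAG1A* and *CTAG1B* therefore give no upper limit of their expression.

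*CTAG2* was concentrated in a minority of cells. At least 1 UMI was found in 388 of 1751 DAC-treated cells (22.2%, Clopper-Pearson interval 20.2 to 24.2%), and 3 UMIs or more in 223 cells (12.7%, 11.2 to 14.4%). No mock-treated cell had a UMI, which allows a share of cells with a UMI of up to 0.168% by 3 counts and up to 0.207% by the exact interval. These limits hold for cells with a captured UMI, not for cells that express the gene. In the positive cells, the median was 4 UMIs, the quartiles were 1 and 15.25 UMIs, and the highest cell had 55 UMIs. The counts ranged widely, with 134 cells at exactly 1 UMI, 202 cells at 4 UMIs or more, and 141 cells at 10 UMIs or more. The 100 cells with the most *CTAG2* held 70.2% of its UMIs. If every cell took the same share of its UMIs from *CTAG2*, 1224 cells would be expected to hold it, and the observed number was 0.317 of that. After drawing 10000 UMIs from each cell, which left out 458 DAC-treated and 395 mock-treated cells, the share was 18.9% in DAC-treated cells.

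*SSX1* (chrX:48255392-48267444, plus strand) had the most UMIs counted of the *SSX* trio, which also holds *SSX4* (chrX:48383516-48393347, plus strand) and *SSX2* (chrX:52696896-52707178, minus strand). It had 2 UMIs in the mock-treated and 594 UMIs in the DAC-treated library, a CPM ratio of 251 (exact interval 69.2 to 2078, log2 of 7.97). With so few mock-treated UMIs, the log2 ratio was 8.93 without the barcodes shared by both libraries and 9.27 by the mean of per-cell CPM. *SSX2* had 0 and 7 UMIs, at most 1 in a cell, and *SSX4* had 0 and 2 UMIs. All 41 end windows of *SSX2* were shared with its copy *SSX2B*, and all 41 of *SSX4* with *SSX4B*, and both copies were listed at 0 UMIs in both libraries. The low counts of *SSX2* and *SSX4* thus do not show a low expression. No end window of *SSX1* was shared with another gene. The promoters of *SSX1* and *SSX2* (RefSeq, GRCh38.p14; 250 bases before to 50 bases after the start) are shown because they belong to a well counted and a barely counted gene of one family, and capitals mark CG dinucleotides, the sites of DNA methylation.
*SSX1* promoter, chrX:48255142-48255441, plus strand: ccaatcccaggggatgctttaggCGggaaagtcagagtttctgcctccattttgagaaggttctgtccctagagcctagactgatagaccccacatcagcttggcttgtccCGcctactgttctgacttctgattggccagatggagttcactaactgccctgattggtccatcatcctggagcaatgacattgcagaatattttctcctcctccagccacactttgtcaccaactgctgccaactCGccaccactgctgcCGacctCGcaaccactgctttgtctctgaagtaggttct
*SSX2* promoter, chrX:52707129-52707428, minus strand: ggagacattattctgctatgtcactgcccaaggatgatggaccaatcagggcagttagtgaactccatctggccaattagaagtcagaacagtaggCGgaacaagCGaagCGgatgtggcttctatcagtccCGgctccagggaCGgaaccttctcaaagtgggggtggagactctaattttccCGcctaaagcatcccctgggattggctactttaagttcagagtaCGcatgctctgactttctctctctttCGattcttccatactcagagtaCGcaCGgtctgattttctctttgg
The *SSX1* promoter contained 5 CG dinucleotides and that of *SSX2* contained 10, and the median over 35116 RefSeq promoters was 14. The *SSX2* promoter was identical to that of *SSX2B* over all 300 bases and was 85.0% identical to that of *SSX4* (12 CG dinucleotides). As printed, *SSX1* was 53.1% identical to *SSX2* over the aligned columns, but this value does not measure how alike the 2 promoters are. The *SSX1* stretch from attggccagatgg to ggtccatcatcc occurs in *SSX2* as its reverse complement, and an alignment in that orientation was not made.

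*SSX1* was found in 236 DAC-treated cells (13.5%, 11.9 to 15.2%) and in 2 mock-treated cells (0.112%, 0.0136 to 0.405%). At least 3 UMIs were found in 79 DAC-treated cells (4.51%, 3.59 to 5.59%) and in 0 mock-treated cells. The highest cell had 13 UMIs, and the top 100 cells held 73.2% of the UMIs. Its number of cells was 0.508 of the 464.5 expected from an even share. Drawing 10000 UMIs from each cell gave 7.29% in DAC-treated and 0.0195% in mock-treated cells, the latter resting on 2 UMIs.

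*SPANXB1*, on chromosome X (chrX:141002594-141003706, plus strand), had 0 UMIs in mock-treated and 49 in DAC-treated cells and was at least 13.8-fold higher by library sums (log2 of 3.79). The limit was 2.20 on the log2 scale by the mean of per-cell CPM and 2.96 in cells with at most 20% mitochondrial UMIs. It was found in 32 DAC-treated cells (1.83%, 1.25 to 2.57%), and in 24 of them with 1 UMI. A single cell had 10 of the 49 UMIs. Of its 38 end windows, 2 were shared with *SPANXA1* and *SPANXA2*, which were at 0 in both libraries.

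*PRAME* was the exception among the 10 genes, since it was already expressed in mock-treated cells. It had 829 UMIs (16.6 CPM) in mock-treated and 2830 UMIs (47.9 CPM) in DAC-treated cells, a ratio of 2.89 (2.67 to 3.12). *PRAME* lies on chromosome 22 (chr22:22547701-22559361, minus strand) and overlaps 1 annotated gene on the opposite strand. At least 1 UMI was found in 566 mock-treated cells (31.7%, 29.6 to 34.0%) and in 988 DAC-treated cells (56.4%, 54.1 to 58.8%). At least 3 UMIs were found in 69 mock-treated (3.87%) and 412 DAC-treated cells (23.5%). The highest mock-treated cell had 5 UMIs and the highest DAC-treated cell had 18. Drawing 10000 UMIs from each cell gave 15.3% in mock-treated and 34.6% in DAC-treated cells. Unlike *CTAG2*, *PRAME* was spread over the cells close to an even share, with 0.929 of the expected number of cells in the mock-treated and 0.882 in the DAC-treated library, and its top 100 DAC-treated cells held 29.6% of its UMIs.

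*CTCFL* had 2 UMIs in mock-treated and 939 UMIs in DAC-treated cells, a ratio of 397 (110 to 3282). It lies on chromosome 20 (chr20:57495966-57525652, minus strand). It was found in 463 DAC-treated cells (26.4%, 24.4 to 28.6%) and in 2 mock-treated cells, and with 3 UMIs or more in 111 DAC-treated cells (6.34%). *BRDT* had 0 UMIs in mock-treated and 1181 UMIs (20 CPM) in DAC-treated cells and was at least 333-fold higher by library sums (log2 of 8.38), with a limit of 6.08 on the log2 scale by the mean of per-cell CPM. It lies on chromosome 1 (chr1:91949343-92014426, plus strand). It was found in 521 DAC-treated cells (29.8%, 27.6 to 32.0%), and with 3 UMIs or more in 151 cells (8.62%). These regulators were found in more cells than *CTAG2* at 1 UMI and in fewer cells at 3 UMIs, and their intervals did not overlap that of *CTAG2* at either threshold. Their highest cells had 10 and 14 UMIs, and their numbers of cells were 0.717 and 0.698 of those of an even share. After drawing 10000 UMIs from each cell, the shares were 12.7% for *CTCFL* and 15.2% for *BRDT*, below the 18.9% for *CTAG2*.

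The promoters of *PRAME*, *CTCFL*, and *BRDT* are shown to set the gene expressed before treatment beside the regulators that were at 0 to 2 UMIs, again with CG dinucleotides in capitals and 5′ to 3′ along the gene.
*PRAME* promoter, chr22:22559216-22559515, minus strand: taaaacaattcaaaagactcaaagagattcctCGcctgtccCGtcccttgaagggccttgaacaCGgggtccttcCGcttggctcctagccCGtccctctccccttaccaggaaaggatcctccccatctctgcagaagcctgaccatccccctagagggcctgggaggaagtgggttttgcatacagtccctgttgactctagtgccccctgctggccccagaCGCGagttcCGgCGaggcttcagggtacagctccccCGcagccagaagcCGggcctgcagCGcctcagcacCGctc
*CTCFL* promoter, chr20:57525091-57525390, minus strand: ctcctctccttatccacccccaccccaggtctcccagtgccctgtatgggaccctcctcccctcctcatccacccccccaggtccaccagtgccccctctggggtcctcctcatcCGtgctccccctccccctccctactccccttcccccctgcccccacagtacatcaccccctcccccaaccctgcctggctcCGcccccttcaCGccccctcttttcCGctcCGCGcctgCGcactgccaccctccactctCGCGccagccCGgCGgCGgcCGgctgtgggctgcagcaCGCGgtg
*BRDT* promoter, chr1:91949151-91949450, plus strand: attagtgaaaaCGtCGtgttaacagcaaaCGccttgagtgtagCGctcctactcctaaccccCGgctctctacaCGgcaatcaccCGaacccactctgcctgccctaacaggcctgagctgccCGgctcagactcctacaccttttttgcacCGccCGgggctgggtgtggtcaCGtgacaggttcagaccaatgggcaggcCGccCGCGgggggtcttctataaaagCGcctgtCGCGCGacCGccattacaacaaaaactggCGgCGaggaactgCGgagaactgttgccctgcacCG
The *PRAME* promoter contained 13, that of *CTCFL* 15, and that of *BRDT* 23 CG dinucleotides, and that of *SPANXB1* (not shown) contained 9. Of all promoters, 48.3% had fewer CG dinucleotides than that of *PRAME*, 51.1% fewer than that of *CTCFL*, and 64.2% fewer than that of *BRDT*. The letters CCCTC, the core of the CTCF motif that CTCFL also binds, occurred 8 times in the *CTCFL* promoter, 3 times in that of *SPANXB1*, 2 times in that of *PRAME*, once in that of *SSX4*, and not in the others, and 71.2% of all promoters had it. Matches on either strand were counted, and 0 of the CCCTC matches overlapped a match of the other motifs. The GC box letters GGGCGG occurred 2 times in *BRDT* and once in *CTCFL* (45.0% of all promoters), and TATAAA occurred once, in *BRDT* (11.5% of all promoters). These matches describe letters only, and neither methylation nor binding was measured in these libraries.

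By UMIs in DAC-treated cells, the order was *CTAG2*, *PRAME*, *BRDT*, *CTCFL*, *SSX1*, *SPANXB1*, *SSX2*, *CTAG1B*, *SSX4*, and *CTAG1A*. These are numbers of captured 3′ ends and were not scaled to gene length. The Poisson intervals of neighbours did not overlap from *CTAG2* down to *SSX2*, and those of the last 4 genes overlapped. By cells with 1 UMI or more, the order was *PRAME*, *BRDT*, *CTCFL*, *CTAG2*, and *SSX1*, and the intervals of *BRDT* and *CTCFL* overlapped, but at 10000 UMIs drawn from each cell *CTAG2* came after *PRAME* and before *BRDT*, so that this order depends on the depth.

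**Figure D2:**
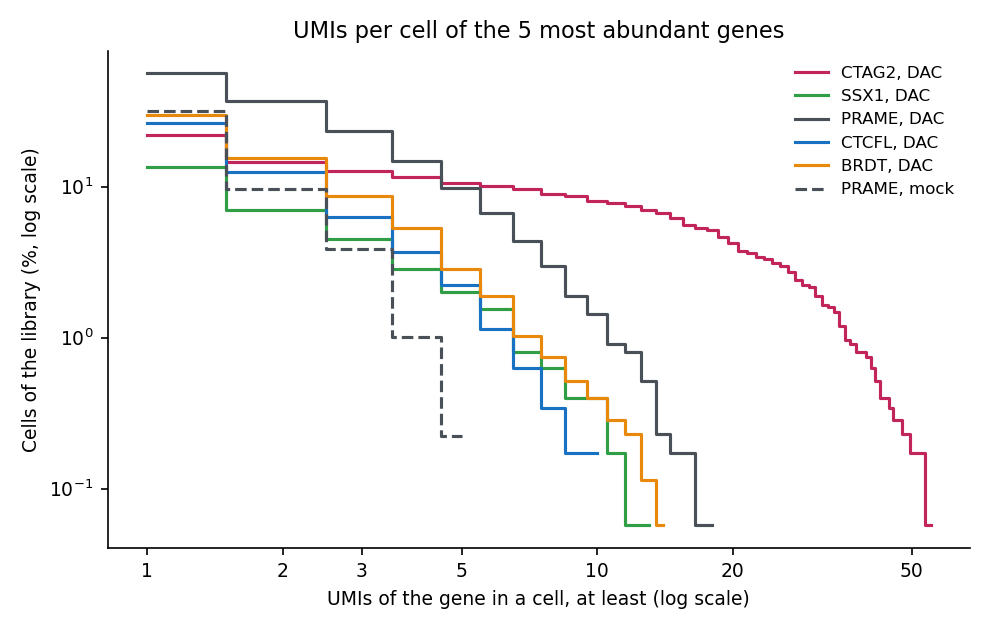
Share of the cells of a library (y axis, percent, log scale) with at least the number of UMIs on the x axis (log scale), for the 5 genes with the most UMIs in DAC-treated cells (solid lines) and for *PRAME* in mock-treated cells (dashed line). The line of *CTAG2* starts at 22.2%, below the solid lines of *PRAME*, *BRDT*, and *CTCFL*, and extends to 55 UMIs. The other solid lines end between 10 and 18 UMIs, and the dashed line ends at 5 UMIs.

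Detection was higher in deeper cells. In the tertile of DAC-treated cells with the fewest UMIs (median 2179), *PRAME* was found in 12.7%, *CTAG2* in 10.8%, *BRDT* in 7.36%, *CTCFL* in 5.31%, and *SSX1* in 2.23% of cells. In the tertile with the most UMIs (median 59133), *PRAME* was found in 84.7%, *BRDT* in 48.4%, *CTCFL* in 44.3%, *CTAG2* in 30.5%, and *SSX1* in 22.0% of cells. For *CTAG2* the share rose less than for *BRDT* and *CTCFL* from the middle tertile (25.2%, against 33.6% and 29.8%) to the tertile with the most UMIs. In mock-treated cells, *PRAME* was found in 7.56% of the shallowest and 49.2% of the deepest tertile, and the other 4 genes in 0 to 2 cells of each tertile.

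**Figure D3:**
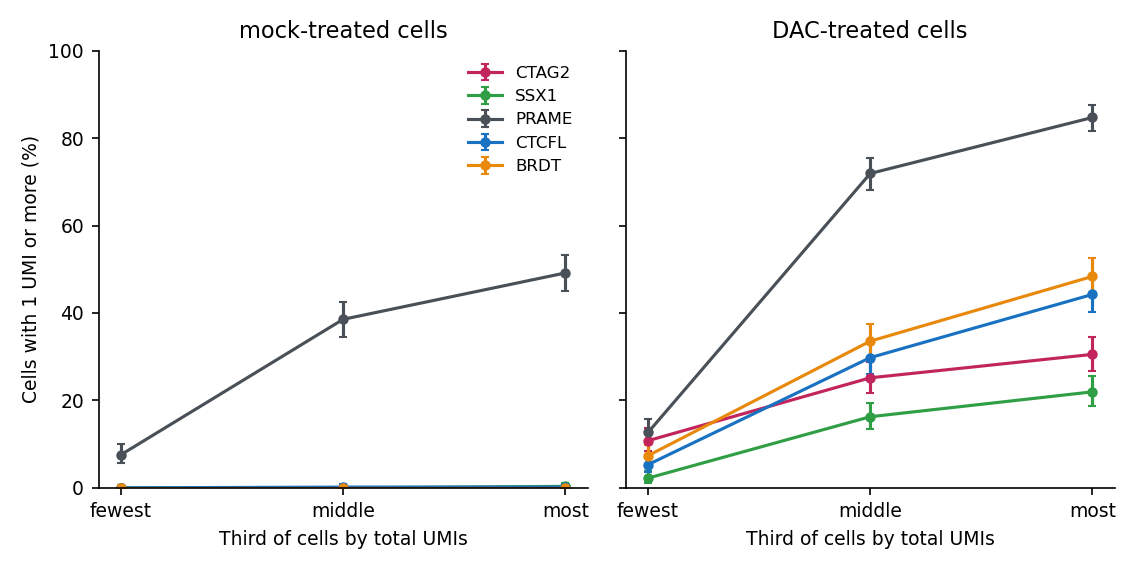
Share of cells with 1 UMI or more (y axis, percent) of 5 genes in tertiles of the cells by total UMIs (x axis), in mock-treated (left) and DAC-treated cells (right). Bars are 95% Clopper-Pearson intervals, and *PRAME* alone is above 1% in mock-treated cells, at 7.56% to 49.2%.

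Any of the 10 genes was found in 1267 DAC-treated cells (72.4%, 70.2 to 74.4%) and in 568 mock-treated cells (31.9%, 29.7 to 34.1%), of which *PRAME* accounted for 566. At 3 UMIs or more, the numbers were 863 DAC-treated cells (49.3%) and 69 mock-treated cells (3.87%). At 10000 UMIs per cell, the shares were 62.3% and 15.4%. The 484 DAC-treated cells without any of the genes had a median of 1836 UMIs, so that most of them were shallow. One gene was found in 443, 2 genes in 410, 3 genes in 294, 4 genes in 103, and 5 genes in 17 DAC-treated cells.

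Co-detection was compared with the number of cells expected from the shares of each gene within 10 groups of cells of similar depth. Over 44 pairs, without the near-identical *CTAG1A* and *CTAG1B*, 2080 pairs of genes were found together in a DAC-treated cell and 1982 were expected, a ratio of 1.05. Without the depth groups, the ratio was 1.37. The pairs share cells, and the interval of 1.00 to 1.10 covers counting error only. *CTCFL* and *BRDT* were found together in 203 cells, with 190.0 expected (ratio 1.07, 0.926 to 1.23). *PRAME* and *BRDT* were found together in 393 cells, with 391 expected. *CTAG2* was found with *CTCFL* in 127 cells, with 126 expected, and with *SSX1* in 76 cells, with 64.6 expected (ratio 1.18, 0.926 to 1.47). Among the 10 pairs of the 5 abundant genes, each interval included 1 at this threshold. At 3 UMIs or more of both genes, the ratio over all pairs was 1.18 (1.07 to 1.31), and intervals above 1 were found for *SSX1* with *CTCFL* (16 cells, with 8.86 expected, ratio 1.81, 1.03 to 2.93) and for *PRAME* with *CTCFL* (60 cells, with 45.1 expected, ratio 1.33, 1.01 to 1.71). At 1 UMI or more, *SSX1* and *SPANXB1* were found together in 13 cells, with 5.59 expected (ratio 2.32, 1.24 to 3.97). *SSX1* and *SSX2* were together in 5 cells, with 1.39 expected (ratio 3.59, 1.16 to 8.37), and both pairs rest on few cells. At 3 UMIs or more, only 2 cells had *SPANXB1*, and it was together with *SSX1* in 0 cells, with 0.189 expected. That threshold could therefore not decide on this pair.

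For each of the 5 abundant genes, the genes most like it were named by Pearson's r of log2(UMIs per 10000 UMIs + 1) over the 1293 DAC-treated cells with 10000 UMIs or more, among 12070 genes found in 100 of these cells or more. The cells share 1 library, and r is given as a description. *CTAG2* was most like *PNMA5*, a gene of the paraneoplastic antigen family (r = 0.57), and *MAGEA6* (0.53) and *MAGEA12* (0.48), antigens of the MAGE-A family. These 3 genes lie 1.66, 1.89, and 1.92 Mb from *CTAG2* on chromosome X. *SSX1* was most like *PAGE2B* (0.38) and *GAGE2A* (0.37), members of cancer-testis families with many copies, and *SSX3* (0.36), at 6.82, 1.33, and 0.091 Mb. *BRDT* was most like *L1TD1* (0.23), an RNA-binding protein of pluripotent cells, *MAEL* (0.23), a protein of the piRNA pathway, and *DMRTB1* (0.17), a germ cell transcription factor, all on chromosome 1 but 29.8, 75, and 38.5 Mb away. *CTCFL* was most like *DPEP3*, a testis dipeptidase (0.25), *CDK8* (0.16), and *DAZL* (0.16), a germ cell RNA-binding protein. *PRAME* was most like *PRDX5* (0.23), *DNAJA2* (0.22), and *ROCK1* (0.22), which were expressed in both libraries. Between the 5 genes themselves, r was 0.02 to 0.12, and r with the depth of the cell was 0.06 to 0.09.

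The genes most like *CTAG2* and *SSX1* were mostly X-linked as well. Of the 20 genes most like *CTAG2*, 17 lie on chromosome X, which held 390 (3.24%) of the 12033 compared genes with a position. For *SSX1* it was 15 of 20. For *BRDT*, 11 of 20 lie on chromosome 1, which held 10.1% of the compared genes, and it was 2 of 20 for *CTCFL* and 0 of 20 for *PRAME* on their own chromosomes. Among genes never above 2 UMIs in a mock-treated cell, the 15 within 5 Mb of *CTAG2* had a median r of 0.292, the 54 farther away on chromosome X had 0.071, and the 1213 on other chromosomes had 0.027. Around *SSX1*, the medians were 0.233 (11 genes), 0.069 (58 genes), and 0.011 (1213 genes). Within 5 Mb of *CTAG2*, 11 of the 15 genes had an r above 0.2, while *MAMLD1*, *MTMR1*, *GABRQ*, and *TMLHE* had -0.04 to 0.06. Of the 54 farther away, 12 were above 0.2, with *FMR1NB* at 0.39 and *GAGE12H*, 105 Mb away, at 0.32. Around *SSX1*, it was 6 of 11 and 5 of 58. Whether the likeness went with distance or with the kind of gene was not tested. Over the other genes, those with more UMIs in a mock-treated cell, the medians at the same distances were 0.069, 0.025, and 0.017 for *CTAG2* and 0.026, 0.036, and 0.021 for *SSX1*. For *BRDT*, 2 genes never above 2 UMIs in a mock-treated cell lie within 5 Mb (median r of 0.012), too few to compare. The highest r of such genes farther away on chromosome 1 was 0.23. Over the other genes, the medians for *BRDT* were 0.048 within 5 Mb (33 genes), 0.031 farther away on chromosome 1 (1062 genes), and 0.019 on other chromosomes (9656 genes).

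**Figure D4:**
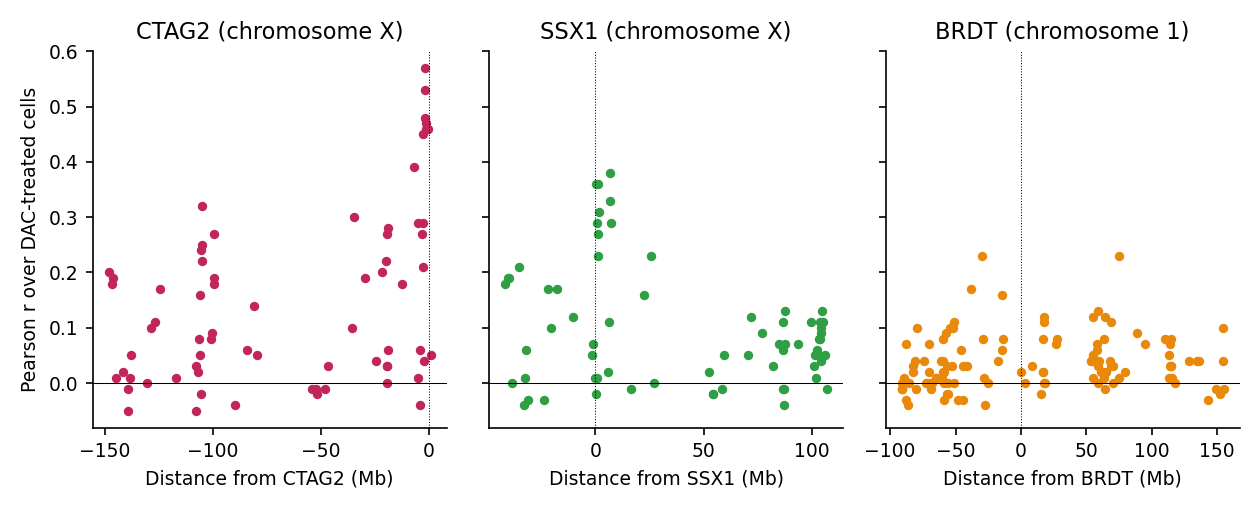
Pearson's r with *CTAG2*, *SSX1*, and *BRDT* over 1293 DAC-treated cells (y axis) of genes on the same chromosome never above 2 UMIs in a mock-treated cell, by the distance of their start from the named gene (x axis, Mb). Each point is a gene, and the highest points of *CTAG2* (r of 0.45 to 0.57) lie within 5 Mb of it, while the points of *BRDT* reach 0.23 at most.

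The same was visible in numbers of cells. *PNMA5* was found in 244 of the 388 cells with *CTAG2* (62.9%), with 121 expected at like depth (ratio 2.01, 1.77 to 2.28), and *CTAG2* in 52.0% of the cells with *PNMA5*. At 3 UMIs or more of both genes, there were 160 cells, with 52.4 expected (ratio 3.05). *SSX3*, of which no end window was shared with *SSX1*, was found in 90 of the 236 cells with *SSX1* (38.1%), with 32.0 expected (ratio 2.82, 2.26 to 3.46). For *BRDT* and *L1TD1*, the number was 248 cells, with 191 expected (ratio 1.30, 1.14 to 1.47), and for *CTCFL* and *DPEP3* 186 cells, with 138 expected (ratio 1.35, 1.16 to 1.55). *PRAME* with *PRDX5* was at 1.02, since *PRDX5* was found in 1394 cells. These partner genes were picked as the most alike in the same cells, so that ratios above 1 were set by the choice.

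**Figure D5:**
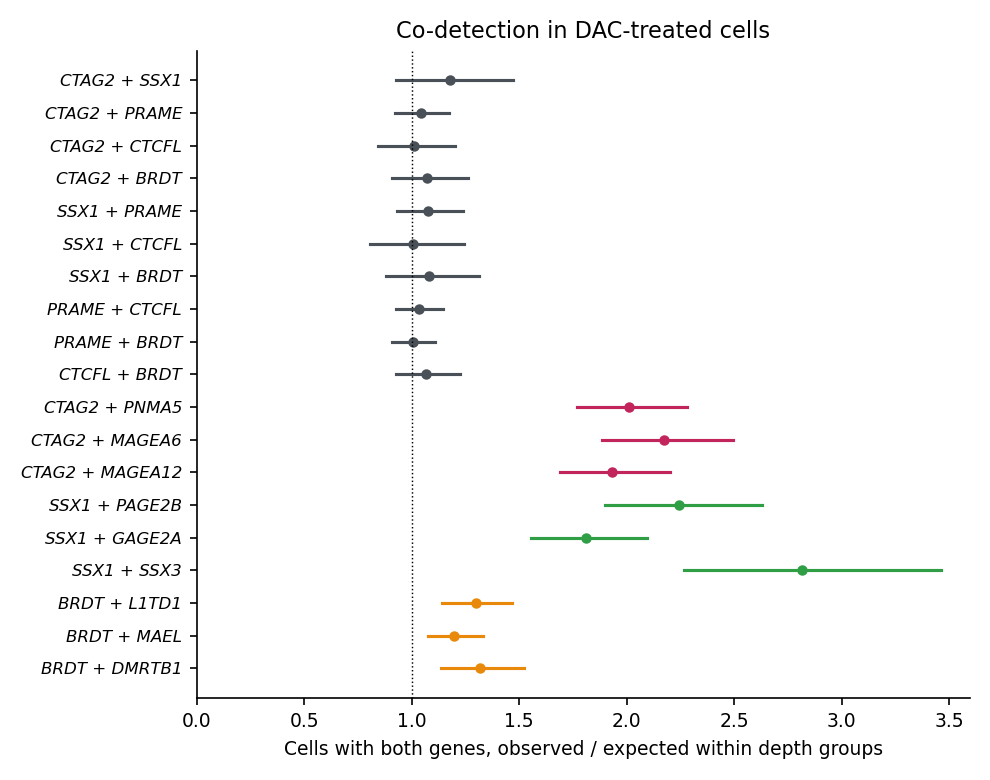
Number of DAC-treated cells with both genes, divided by the number expected within depth groups (x axis), for pairs among the 5 abundant genes (gray) and for *CTAG2*, *SSX1*, and *BRDT* with the 3 genes most like each (colored). Lines are 95% Poisson intervals, the dotted line is 1, and the gray pairs lie at 1.01 to 1.18. Pairs of *CTAG2* and *SSX1* with their most alike genes lie at 1.81 to 2.82. The colored partners were picked as the most alike in the same cells, so that their ratios above 1 were set by the choice.

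Relatives of the 10 genes were also counted. Of 27 listed relatives, 12 had 10 UMIs or more, and 8 of these were at least 2-fold higher, against 25.4% of all genes. The 8 genes were all at 0 UMIs in mock-treated cells, reached 10 UMIs through DAC-treated cells, and could only be higher, and 15 other relatives had fewer than 10 UMIs in all. *SSX3* had 300 and *SSX5* had 22 UMIs in DAC-treated cells. *PRAMEF12*, of the PRAME family on chromosome 1, had 368 and *PRAMEF1* had 112 UMIs in DAC-treated cells, and *PRAMEF8*, *SPANXD*, *PRAMEF2*, and *PRAMEF6* had 11 to 27 UMIs. The widely expressed paralogs *CTCF*, *BRD2*, and *BRD3* stayed within 2-fold. *CTCF* had 2796 and 4418 UMIs (ratio 1.34), *BRD2* had 7734 and 10449 UMIs (1.14), and *BRD3* had 2032 and 2297 UMIs (0.956).

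Partners of *PRAME* and targets of retinoic acid were counted as separate lists, and the lists were not compared by a test. The shares over all genes were 25.4% higher and 8.39% lower. Among 8 measured partners, none was 2-fold higher and 1 was 2-fold lower, the retinoic acid receptor gene *RARG* (638 and 363 UMIs, ratio 0.481). The elongin genes *ELOB* (17587 and 32388 UMIs) and *ELOC* (9299 and 20231 UMIs) had ratios of 1.56 and 1.84. Among 7 retinoic acid target genes, 6 were at least 2-fold higher and 1 was lower. *TGM2*, encoding a transglutaminase, had 455 and 5527 UMIs (ratio 10.3, 9.33 to 11.3), and *CYP26A1*, encoding a retinoic acid hydroxylase, had 13 and 121 UMIs (ratio 7.87, 4.43 to 15.2). *STRA6* (5.92), *CYP26B1* (2.28), and *RARRES1* were also higher, and *RARRES1* rested on 2 and 8 UMIs (ratio 3.38, 0.675 to 32.7). *DHRS3*, encoding a retinal reductase, had 1934 and 696 UMIs (ratio 0.304, 0.279 to 0.332).

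None of 6 measured SSX partners and none of 7 cohesin genes and CTCFL partners passed 2-fold in either direction. The genes with the most UMIs were *BMI1* (ratio 1.54) and *SSX2IP* (0.662) among the former and *RAD21* (1.34) and *SMC3* (1.17) among the latter. Of 5 genes of BRDT partners, 2 were at least 2-fold higher, against 25.4% of all genes, and 5 genes are too few to set apart from that share. These were *PRMT5* (2075 and 5098 UMIs, ratio 2.08) and *WDR77* (1015 and 3495 UMIs, ratio 2.91), which encode the subunits of the methylosome. *PRMT5* was near the limit (log2 of 1.05), and median-of-ratios scaling, which lowered every log2 ratio by 0.18, takes it below. *TRIM28* (1.53) and *HDAC1* (0.696) had the most UMIs. Other germline regulators were counted beside *CTCFL* and *BRDT*. Of 28 measured, 20 were at least 2-fold higher, against 25.4% of all genes, but 18 of the 28 had fewer than 10 UMIs in mock-treated cells and were measured through their DAC-treated UMIs. Of the 10 with 10 UMIs or more in mock-treated cells alone, a filter chosen after seeing the data, 3 were at least 2-fold higher and 0 were lower, against 13.1% and 9.68% of the 15478 such genes. *LIN28B*, a regulator of let-7 processing, had 1 and 1566 UMIs, *SOHLH1*, a transcription factor of germ cell differentiation, had 1 and 1351 UMIs, and *MAEL* had 0 and 2533 UMIs. Of 38 other cancer-testis genes, 29 were at least 2-fold higher, and 26 of the 38 had fewer than 10 UMIs in mock-treated cells. Of the other 12, 3 were higher and 0 were lower. On chromosome X, which holds 7 of the 10 genes, 31.7% of 634 genes were at least 2-fold higher, and 25.1% of 18324 autosomal genes.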

How the data were processed

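Single cell libraries of mock- and DAC-treated HCT116 cells were prepared with the Chromium 3′ v3 chemistry. Per the methods, 1000 live cells were used for a library, and the tables held 1783 and 1751 barcodes. The authors mapped reads to hg38 using Cell Ranger 3.0.2 and deposited raw UMI counts. The annotation release, the strand setting, and any filter on cells are not given in the sources used here.

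All deposited cells were used, and doublets of a single cell line were not called. UMIs were summed per library and divided by its total (CPM). A gene at 0 UMIs in mock-treated cells was set to 3 counts over the library, and its ratio is a lower limit. Shares have exact Clopper-Pearson, sums exact Poisson, and ratios exact conditional binomial intervals. Genes were required to have 10 UMIs over both libraries to be counted as 2-fold changed. Positions and transcript ends were from GENCODE release 44, by Ensembl identifier, and promoters from RefSeq (GRCh38.p14), which matched 7 of the 10 genes. Python 3.11.15, numpy 2.4.6, scipy 1.17.1, pandas 2.3.3, and matplotlib 3.10.9 were used, and the computations were tested on simulated data.

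The 10 genes, the lists, and the alternatives were chosen with earlier results of these data known. Named were the 10 genes, in each list of relatives and partners the 2 genes with the most UMIs and those past 2-fold, and for each of the 10 genes with 100 UMIs or more the 3 genes most like it. *CTCF*, *BRD3*, *LIN28B*, *SOHLH1*, and *MAEL* were named in addition, after their values were seen, and the results of 2 listed genes are not reported here. Both groups had 1 library, so spread between cultures is unknown, and no p-value is given.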

Additional observations from a re-analysis of the deposited data

How the results depend on the processing

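No paired analysis was possible because each group had 1 library, and no replicate could be left out. The number of genes at least 2-fold higher was 5 or 6 under 11 alternatives. The share of cells with any of the 10 genes depended on depth and on the UMIs asked for. It was 62.25% in DAC-treated and 15.36% in mock-treated cells after drawing 10000 UMIs, 13.39% and 1.51% after drawing 1000, 59.17% and 9.703% at 2 UMIs or more, 49.29% and 3.87% at 3 UMIs or more, 74.49% and 35.88% in cells with at most 20% mitochondrial UMIs, and 93.66% and 42.37% in cells with 10000 UMIs or more and at most 50% mitochondrial UMIs. The co-detection ratio was 1.181 at 3 UMIs or more and 1.372 without depth groups. Over the 6 of the 10 genes with 10 UMIs or more, 3 of them at their lower limit and 5 measured through DAC-treated cells alone, the median log2 ratio was 8.175 by library sums and 6.843 by the mean of per-cell CPM. The log2 limits of *CTAG1B* (4 UMIs) and *SSX2* (7 UMIs), which give no direction, fell below 0, to -0.0093 (median-of-ratios) and -2.546 (per-cell CPM) for *CTAG1B* and to -1.963 (per-cell CPM) for *SSX2*. Of 157 alternatives for single genes and lists, 92 stayed within the interval or 1.5-fold limit, 62 moved without a change of sign, and these 3 fell below 0. With other likeness settings, chosen after seeing the data, the genes on the same chromosome among the top 20 numbered 15 to 18 for *CTAG2*, 14 to 16 for *SSX1*, and 9 to 12 for *BRDT*.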

Other observations

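The readouts of DAC-treated cells with *CTAG2* differed from those of cells without it at like depth. In the 388 cells with *CTAG2*, the 14 S-phase genes summed to 1071 CPM, against 1391 CPM in cells without it, a ratio of 0.770, and the 14 G2/M genes summed to 1911 CPM, against 2597 CPM, a ratio of 0.736. All 14 genes of each list were lower. At 10 UMIs of *CTAG2* or more (141 cells), the ratios were 0.712 and 0.662, and among cells with 10000 UMIs or more and at most 50% mitochondrial UMIs they were 0.783 and 0.743. These thresholds and filters were chosen after seeing the data. Mitochondrial UMIs had a median of 20.1% in cells with *CTAG2* and 18.0% in cells without it, and in cells with at most 20% mitochondrial UMIs the ratios were 0.816 and 0.797. The part of the mitochondrial share was otherwise not tested. Other cancer-testis genes summed to 1697 CPM in cells with *CTAG2* and 1125 CPM in cells without it (ratio 1.51), and since 7 of the 40 listed genes are among the 20 genes most like *CTAG2* in the same cells, this is not a separate result. Interferon-stimulated genes were at a ratio of 1.11 and p53 target genes at 0.844, but at 1.07 (8 of 15 genes lower) and 0.951 in cells with at most 20% mitochondrial UMIs.

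In cells with *SSX1*, the other cancer-testis genes summed to 1750 CPM, against 1191 CPM (ratio 1.47), and 6 of the listed genes are among the 20 most like *SSX1*. The interferon-stimulated genes were at a ratio of 1.20, the S-phase genes at 0.954, and the G2/M genes at 0.966. In cells with *CTCFL* and with *BRDT*, the S-phase ratios were 1.03 and 0.999, and the cancer-testis ratios were 1.05 and 1.08. The 32 cells with *SPANXB1* had ratios of 0.677 for S-phase and 0.634 for G2/M genes, with a median of 20.2% mitochondrial UMIs, against 18.3% in cells without it, whose part was not tested. These are sums over the cells of 1 library, without replicates.

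Between the libraries, 11 of 14 S-phase genes, 7 of 14 G2/M genes, and 13 of 13 interferon-stimulated genes with 10 UMIs or more in mock-treated cells were at least 2-fold higher with DAC treatment, against 13.1% of all genes with 10 UMIs or more in mock-treated cells. DAC-treated cells with 0, 1, 2, 3, and 4 or more of the 10 genes numbered 484, 443, 410, 294, and 120, with 461, 441, 461, 286.5, and 102 expected at like depth.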
